A study of Homo sapiens with 6 samples.

Results

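The genes followed here encode enzymes that place methyl groups on histone lysines, enzymes that take them off, and relatives named with them. They were followed in KGN, a cell line derived from a human granulosa cell tumour of the ovary. Members were chosen by gene symbol: the KDM1 to KDM8 genes with KDM5D left out, the KMT2, KMT5 and SETD genes, and EZH1, EZH2, EHMT1, EHMT2, SUV39H1, SUV39H2, NSD1, DOT1L and PRDM2. The choice gave 46 of the 20030 gene names in the count table, 17 of them demethylase genes and 29 methyltransferase genes. The study asked how the transcriptome of this line changes when SNHG5, a long noncoding RNA, is depleted. There were 3 libraries of cells given siRNA against SNHG5 and 3 of cells given negative control siRNA, all labelled wild type in genotype and harvested 48 h after transfection. The labels give no siRNA sequence or number of siRNAs, and SNHG5 itself was not analysed here. No library was of cells without siRNA, so a rise with SNHG5 siRNA cannot be told apart from a fall with control siRNA.

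The SNHG5 siRNA libraries held 19417645 to 22088913 counts and the control siRNA libraries 18232634 to 20479618. SNHG5 siRNA replicate 2 stood apart from the other libraries. Its deviation from its group's mean fell with exon length across 12348 tested genes (Spearman's rho = -0.444), while the other 5 libraries ranged from -0.223 to 0.351. Genes are not independent replicates, so this describes the library and gives no p. Of the 11 granulosa markers, FOXL2 (24.1 to 33.6 CPM, counts scaled to library size) and NR5A1 (34.9 to 39.1 CPM) were present in all libraries, while AMHR2 had at most 1 count, CYP11A1 at most 4, and INHA and CYP19A1 at most 11. The 11 summed to 161 to 166 CPM in SNHG5 siRNA libraries and 152 to 161 CPM in control siRNA libraries. The 9 markers of other cell types, of which CDH5 and LUM were at 0 in all libraries, summed to 44.8 to 47.3 CPM in SNHG5 siRNA libraries and 38.6 to 41.8 CPM in control siRNA libraries. CD68 and KRT19 made up most of that sum, and its part in the results was not tested.

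Methyltransferases take the methyl group from S-adenosylmethionine and place it on particular lysines of histones H3 and H4, where reader proteins recognise it. Demethylases of the KDM1 family remove it with a flavin cofactor, and the others with a Jumonji (JmjC) domain that uses iron and 2-oxoglutarate. Methylation of H3K4, H3K36 and H3K79 is a mark of active genes, whereas H3K9 and H3K27 methylation marks silent chromatin; writers and erasers of each residue exist side by side in most cells.

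More demethylase genes fell than rose in SNHG5 siRNA cells relative to control siRNA cells. Methyltransferase genes rose and fell at shares near those of all tested genes. All 17 demethylase genes and 27 of the 29 methyltransferase genes had enough counts to be tested, among 12508 genes in all. Throughout, passing means an adjusted p below 0.05, where p comes from the quasi-likelihood test of edgeR and is adjusted by Benjamini-Hochberg over all tested genes. Of the 44 tested members, 20 passed, against a background of 40.2% of all tested genes; 6 were higher (background 20.3%) and 14 were lower (background 19.9%). Of the 17 demethylase genes, 2 rose, 9 fell (52.9%) and 6 did not pass, with a median log2 fold change of -0.20. Of the 27 tested methyltransferase genes, 4 rose (14.8%), 5 fell (18.5%) and 18 did not pass. The passing share of this class was 33.3%, beside 40.2% of all tested genes. Its median log2 fold change was 0.01, beside -0.01 over all tested genes. The difference between the classes is given as counts, with no test. CPM of the 2 groups did not overlap in 23 of the 44 tested members, against a background of 49.7% of tested genes. An exact permutation test of 3 against 3 libraries cannot go below p = 0.1, and the same 23 members reached that value. In bulk RNA, fewer cells with a transcript and less of it per cell cannot be told apart.

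**Figure D1:**
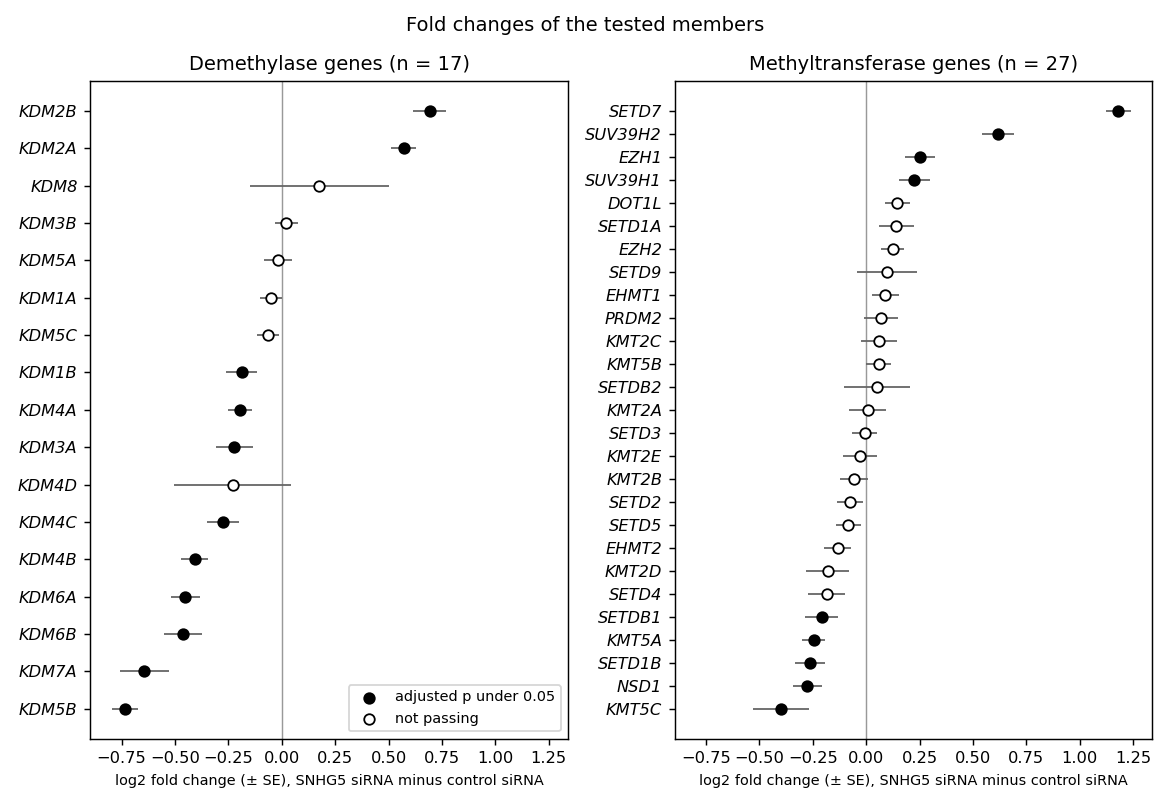
Log2 fold change ± SE of each tested gene, SNHG5 siRNA minus control siRNA (n = 3 libraries each), for 17 demethylase genes on the left and 27 methyltransferase genes on the right. Filled points have an adjusted p under 0.05: 11 demethylase genes, of which KDM2B and KDM2A are to the right of 0, and 9 methyltransferase genes, led by SETD7 at 1.18.

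Among the members, SETD7 (1.18), KDM2B (0.69), SUV39H2 (0.62) and KDM2A (0.57) had the largest rises in log2 terms, and these 4 shared a 7-base word in annotated 3′ UTRs. The word is TCGGAGA. It had the highest mean log2 fold change of 16026 words that each occurred in 3′ UTRs of at least 100 tested genes. The word was picked from this same contrast, so the values of its genes are a description and not independent support. With no siRNA sequence in the labels, the word was not compared with either siRNA. The 3′ UTRs of 331 of 12292 tested genes held it (2.69%); their median log2 fold change was 0.13, against -0.01 in the other 11961 genes, and 39.0% of them passed as higher, against 19.9%. Only the transcript strand was searched, over every annotated transcript of a gene, and 3′ UTRs differ in length between genes. The sites of the 7 members that held the word are printed with 9 bases on each side, the word in capitals, from the GENCODE v29 transcripts (GRCh38), to show what they share and that the flanks differ.
SETD7: gtaccacatTCGGAGAtgccaaatg
KDM2B, upstream site: acattcctgTCGGAGAggagggtgg
KDM2B, downstream site: gggtggactTCGGAGAaattctcat
SUV39H2: acctcaaatTCGGAGAaacagttaa
KDM2A: ttttgttttTCGGAGAaatattgta
EHMT1: ctgtcaggcTCGGAGAggtcaggag
PRDM2: gtccatgtcTCGGAGAaacgggtga
KDM4B: cggcctctcTCGGAGAatgttccct

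The word lay at chr4:139511370-139511376 (minus strand) in SETD7, in 1 of its 5 coding transcripts, and at chr10:14902892-14902898 (plus strand) in SUV39H2, in 3 of 3. In KDM2B it lay at chr12:121430021-121430027 and chr12:121430002-121430008 (minus strand), in 5 of 7 coding transcripts. In KDM2A it lay at chr11:67257698-67257704 (plus strand), in 1 of 4. Of the members with the word, 4 rose, KDM4B fell, and EHMT1 (0.09) and PRDM2 (0.07) did not pass. The 3 demethylase genes with it had a median log2 fold change of 0.57, against -0.21 in the 14 without. The 4 methyltransferase genes with it had a median of 0.35, against -0.03 in the 23 without it. The word was picked from this contrast with the members included. Higher medians with it were therefore favoured in advance and are no support for it. SETD7 also held ACACGAA, the word with the lowest mean of the 16026 (median -0.19 in its 331 genes), in the 3′ UTR of another annotated transcript. A match is a run of letters in an annotated transcript, and the gene counts do not show which transcript KGN cells use.

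**Figure D2:**
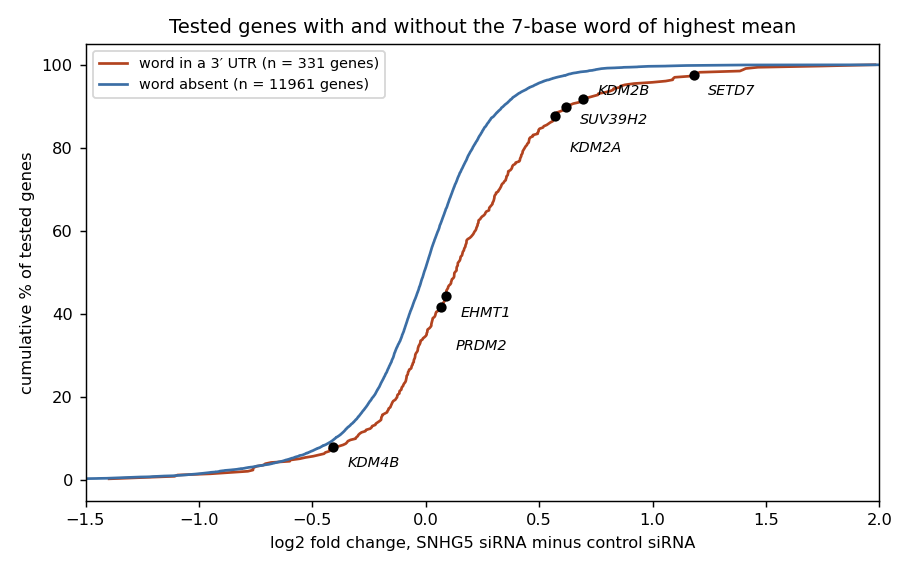
Cumulative share of tested genes (%) by log2 fold change, SNHG5 siRNA minus control siRNA, for 331 genes with the 7-base word in an annotated 3′ UTR and 11961 genes without it. Points mark the 7 members with the word: SETD7, KDM2B, SUV39H2 and KDM2A are at 0.57 or above, EHMT1 and PRDM2 are near 0, and KDM4B is at -0.41.

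The largest rise of a writer and the largest fall of an eraser were both on H3K4. SETD7, which monomethylates H3K4 and also methylates many proteins that are not histones, was at 303, 267 and 304 CPM in SNHG5 siRNA replicates 1, 2 and 3, against 130, 123 and 131 CPM in control siRNA replicates 1, 2 and 3. Every SNHG5 siRNA library was above every control siRNA library, a 2.27-fold rise (log2 fold change 1.18 ± 0.06 SE; edgeR adjusted p = 1.67e-11). SETD7 lies on chromosome 4 (139495941 to 139606699, minus strand). Per length it was at 27.4 ± 2.24 FPKM in SNHG5 siRNA cells and 12.3 ± 0.451 FPKM in control siRNA cells (SD, n = 3 each; FPKM as deposited by the authors). It was above KMT5A (14.95 ± 0.342 FPKM) in SNHG5 siRNA cells and below it (17.1 ± 0.237 FPKM) in control siRNA cells.

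KDM5B, a JmjC demethylase that removes the trimethyl mark from H3K4 at promoters, was at 38.2, 36.9 and 40.4 CPM in SNHG5 siRNA libraries, against 66.0, 63.6 and 61.9 CPM in control siRNA libraries. The groups did not overlap and the fall was 1.66-fold (log2 fold change -0.73 ± 0.06 SE; adjusted p = 2.31e-08). Its close relatives KDM5A (-0.02) and KDM5C (-0.06) did not pass. KDM5C, the more abundant gene of the family, was at 158, 157 and 165 CPM in SNHG5 siRNA libraries and 172, 164 and 165 CPM in control siRNA libraries, which overlapped. KDM5B thereby made up 12.3 ± 0.164% of the summed FPKM of the family in SNHG5 siRNA cells and 18.8 ± 0.506% in control siRNA cells.

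KDM1A, the flavin-dependent eraser also called LSD1 and the most abundant demethylase gene per length (21.5 ± 0.288 FPKM in SNHG5 siRNA cells and 22.7 ± 0.377 FPKM in control siRNA cells), did not pass. It was at 144, 143 and 140 CPM in SNHG5 siRNA libraries, against 146, 151 and 144 CPM in control siRNA libraries. Its relative KDM1B had a log2 fold change of -0.19 at an adjusted p of 0.0493. That call did not hold when SNHG5 siRNA replicate 1 (adjusted p = 0.0981), SNHG5 siRNA replicate 2 (0.123), control siRNA replicate 1 (0.0743) or control siRNA replicate 3 (0.208) was left out. It was also lost with all libraries by DESeq2 (adjusted p = 0.0704) and in every limma fit on FPKM.

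SETD1B, the catalytic subunit of a COMPASS complex, was at 43.0, 36.4 and 42.7 CPM in SNHG5 siRNA libraries, against 51.5, 48.3 and 46.5 CPM in control siRNA libraries. It fell by 0.26 (SE 0.07; adjusted p = 0.00591) with no overlap of the groups, but did not pass with the GC trend removed (adjusted p = 0.0788) or by limma on log2(FPKM + 1) (adjusted p = 0.121). Its partner gene SETD1A had 0.14 and did not pass (adjusted p = 0.188), although its groups did not overlap. SETD1A passed as higher under 4 of 18 alternatives: with the GC trend removed and in every limma fit on FPKM. SETD1B lost its call under the same 4. The 5 KMT2 genes, which encode very large proteins, lay between -0.18 (KMT2D) and 0.06 (KMT2C), and all missed the threshold. Their exons exceed 10000 bases except in KMT2E, and SNHG5 siRNA replicate 2 was the lowest of its group in all 5, by little in KMT2B. KMT2A was at 226, 171 and 238 CPM in SNHG5 siRNA libraries, KMT2C at 145, 112 and 146 CPM, and KMT2D at 125, 89.0 and 134 CPM. Control siRNA libraries had 226, 196 and 208 CPM of KMT2A, 142, 124 and 119 CPM of KMT2C, and 142, 130 and 121 CPM of KMT2D. Without SNHG5 siRNA replicate 2, KMT2A had 0.14 (adjusted p = 0.0148) and KMT2C 0.18 (adjusted p = 0.0053), both then passing as higher, while KMT2D had -0.02 (adjusted p = 0.781). KMT2D instead passed as lower without SNHG5 siRNA replicate 3 (-0.29, adjusted p = 0.0169) and under 4 further settings that used all libraries. Its call therefore depends both on which SNHG5 siRNA libraries are used and on the settings of the fit.

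**Figure D3:**
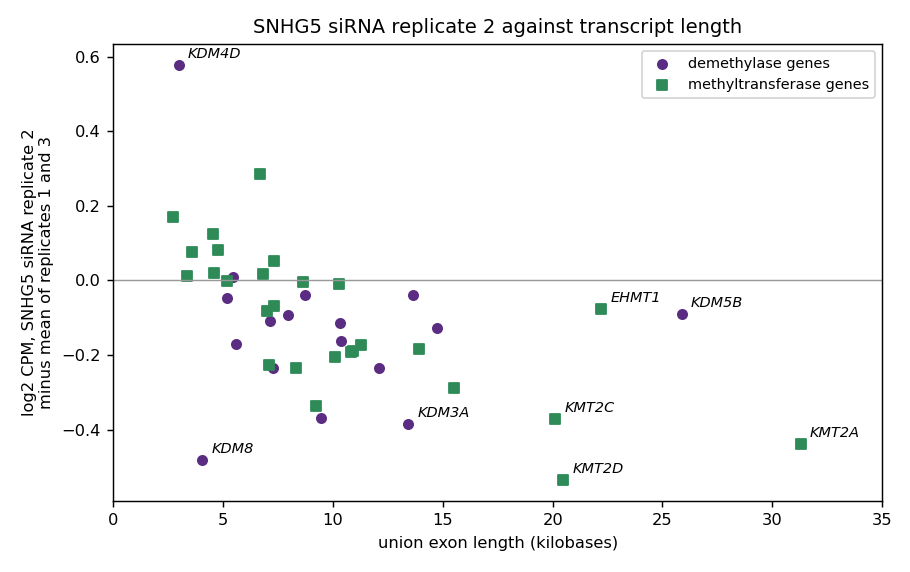
Log2 CPM of SNHG5 siRNA replicate 2 minus the mean of replicates 1 and 3, against the union exon length (kilobases) of the 44 tested members. The 18 members with exons over 10000 bases had a median of -0.187 and the other 26 a median of -0.0215; KMT2D (-0.535) and KMT2A (-0.440) are low, as is KDM8, a gene with few counts (-0.482).

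Erasers of H3K9 fell where they passed, and the SUV39H writers rose. KDM7A, which acts on H3K9 and H3K27, was at 8.28, 6.69 and 9.32 CPM in SNHG5 siRNA libraries, against 13.7, 12.04 and 12.1 CPM in control siRNA libraries. The groups did not overlap (log2 fold change -0.64 ± 0.11 SE; adjusted p = 1.89e-04). The KDM4 enzymes remove trimethyl marks from H3K9 and H3K36. KDM4B was at 43.2, 40.5 and 45.4 CPM in SNHG5 siRNA libraries, against 59.0, 53.9 and 57.9 CPM in control siRNA libraries, a fall of 0.41 in log2 terms (adjusted p = 4.83e-05) that was smaller in the deposited FPKM (-0.25 by limma on log2(FPKM + 0.1), adjusted p = 0.0255). KDM4C was at 26.2, 23.6 and 24.98 CPM in SNHG5 siRNA libraries, against 31.0, 28.6 and 30.8 CPM in control siRNA libraries (log2 fold change -0.28, adjusted p = 0.00705). Neither of these genes overlapped between groups. KDM4A fell by 0.20 (adjusted p = 0.00983; 0.05005 and no longer passing without control siRNA replicate 2), and KDM4D, at under 2 CPM, did not pass.

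KDM3A, an H3K9 eraser known for its response to low oxygen, had -0.22 at an adjusted p of 0.0486 with groups that overlapped. Its call did not hold without SNHG5 siRNA replicate 2 (log2 fold change -0.10, adjusted p = 0.202), SNHG5 siRNA replicate 3 (0.0539), control siRNA replicate 1 (0.147) or control siRNA replicate 3 (0.176). The call was also lost with all libraries by DESeq2 and in every limma fit on FPKM. KDM3B, the more abundant of that pair, had 0.02.

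SUV39H1 and SUV39H2 place the trimethyl mark on H3K9 in heterochromatin around centromeres. SUV39H2 was at 32.9, 36.2 and 35.8 CPM in SNHG5 siRNA libraries, against 22.9, 22.6 and 22.5 CPM in control siRNA libraries. This 1.53-fold rise left a gap between the groups (log2 fold change 0.62 ± 0.07 SE; adjusted p = 2.22e-06). SUV39H1 was at 29.2, 30.1 and 30.5 CPM in SNHG5 siRNA libraries, against 25.3, 26.6 and 24.6 CPM in control siRNA libraries, also without overlap (log2 fold change 0.23, adjusted p = 0.0192). The adjusted p of SUV39H1 was 0.0611 without SNHG5 siRNA replicate 3, 0.0599 without control siRNA replicate 1 and 0.0565 without control siRNA replicate 3. With all libraries SUV39H1 also did not pass under upper quartile scaling. The pair summed to 15.8 ± 0.557 FPKM in SNHG5 siRNA cells and 11.9 ± 0.375 FPKM in control siRNA cells. SUV39H2 overlaps DCLRE1C on the other strand, at 20.4 CPM and a log2 fold change of 0.09. Such an overlap was found in 10 members. Among them were KDM2B, with RNF34 (37.3 CPM, log2 fold change 0.05), and SETDB1, with CERS2 (244 CPM, 0.14). Whether the counting used strand is not given in the sources used here.

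SETDB1, a writer recruited by TRIM28 to silence retroelements, had -0.21 (adjusted p = 0.0335). Its call did not hold in 5 of the 6 fits that left out 1 library, with adjusted p of 0.0566 and 0.117 without SNHG5 siRNA replicates 1 and 2, and 0.0632, 0.0975 and 0.0811 without control siRNA replicates 1, 2 and 3. The call was also lost with all libraries in every limma fit on FPKM. EHMT1 (0.09) and EHMT2 (-0.13), which form the GLP and G9a heterodimer that methylates H3K9 in euchromatin, did not pass, nor did PRDM2 (0.07) and SETDB2 (0.05). EHMT2 passed as lower under 4 of 18 alternatives, among them without control siRNA replicate 3 (-0.19, adjusted p = 0.0333). In the deposited FPKM it hardly differed, at 8.58 ± 0.187 in SNHG5 siRNA cells and 8.65 ± 0.363 in control siRNA cells.

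Both H3K27 erasers fell, and EZH1 rose. KDM6A, also called UTX and a subunit of the KMT2C and KMT2D complexes, was at 34.5, 33.1 and 36.9 CPM in SNHG5 siRNA libraries, against 48.7, 44.1 and 49.8 CPM in control siRNA libraries. KDM6B, also called JMJD3 and induced by many signals, was at 13.1, 10.8 and 12.5 CPM in SNHG5 siRNA libraries, against 16.4, 16.6 and 17.3 CPM in control siRNA libraries. Neither gene overlapped between the groups. The log2 fold change was -0.45 ± 0.07 SE for KDM6A (adjusted p = 3.75e-05) and -0.46 ± 0.09 SE for KDM6B (adjusted p = 4.48e-04).

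The H3K27 writers EZH1 and EZH2 are alternative catalytic subunits of Polycomb complex PRC2. EZH1 was at 37.3, 34.4 and 35.6 CPM in SNHG5 siRNA libraries, against 31.3, 30.2 and 28.5 CPM in control siRNA libraries, with no overlap (log2 fold change 0.25 ± 0.07 SE; adjusted p = 0.00811). EZH2 was at 134, 142 and 127 CPM in SNHG5 siRNA libraries, against 121, 126 and 122 CPM in control siRNA libraries. Its lowest SNHG5 siRNA library was just above its highest control siRNA library, and it did not pass (0.12, adjusted p = 0.0814; 0.16 and adjusted p = 0.0487 without SNHG5 siRNA replicate 3). EZH1 was 33.0 ± 1.32% of the summed FPKM of the pair in SNHG5 siRNA cells and 29.5 ± 0.916% in control siRNA cells.

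On H3K36 the erasers KDM2A and KDM2B rose and the writer NSD1 fell, while other enzymes of this residue moved the opposite way. NSD2, an H3K36 writer outside the symbol rule, rose by 0.22 (adjusted p = 0.00349), at 386 ± 26.1 CPM in SNHG5 siRNA cells and 329 ± 15.6 CPM in control siRNA cells, and KDM4A, KDM4B and KDM4C, which also act on H3K36, fell. KDM2B, which binds CpG islands and recruits a variant Polycomb PRC1 complex, was at 34.4, 33.4 and 34.3 CPM in SNHG5 siRNA libraries, against 21.9, 21.8 and 19.1 CPM in control siRNA libraries. KDM2A, its CpG island-binding relative, was at 111, 97.7 and 108 CPM in SNHG5 siRNA libraries, against 69.3, 72.3 and 70.8 CPM in control siRNA libraries. In both genes the groups were well apart. KDM2B rose 1.62-fold (log2 fold change 0.69 ± 0.08 SE; adjusted p = 9.82e-07) and KDM2A 1.49-fold (0.57 ± 0.06 SE; adjusted p = 3.65e-07), and both carry the word printed above. NSD1, which places mono- and dimethyl marks on H3K36, was at 128, 105 and 128 CPM in SNHG5 siRNA libraries, against 151, 146 and 140 CPM in control siRNA libraries. Replicate 2 was the lowest of the SNHG5 siRNA libraries, and NSD1 still passed without it (log2 fold change -0.28, adjusted p = 0.00302 with all libraries; -0.18 without replicate 2); by limma on log2(FPKM + 1) with no filter on low values its adjusted p was 0.0693. SETD2, the writer of the trimethyl mark, had -0.08 and did not pass.

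**Figure D4:**
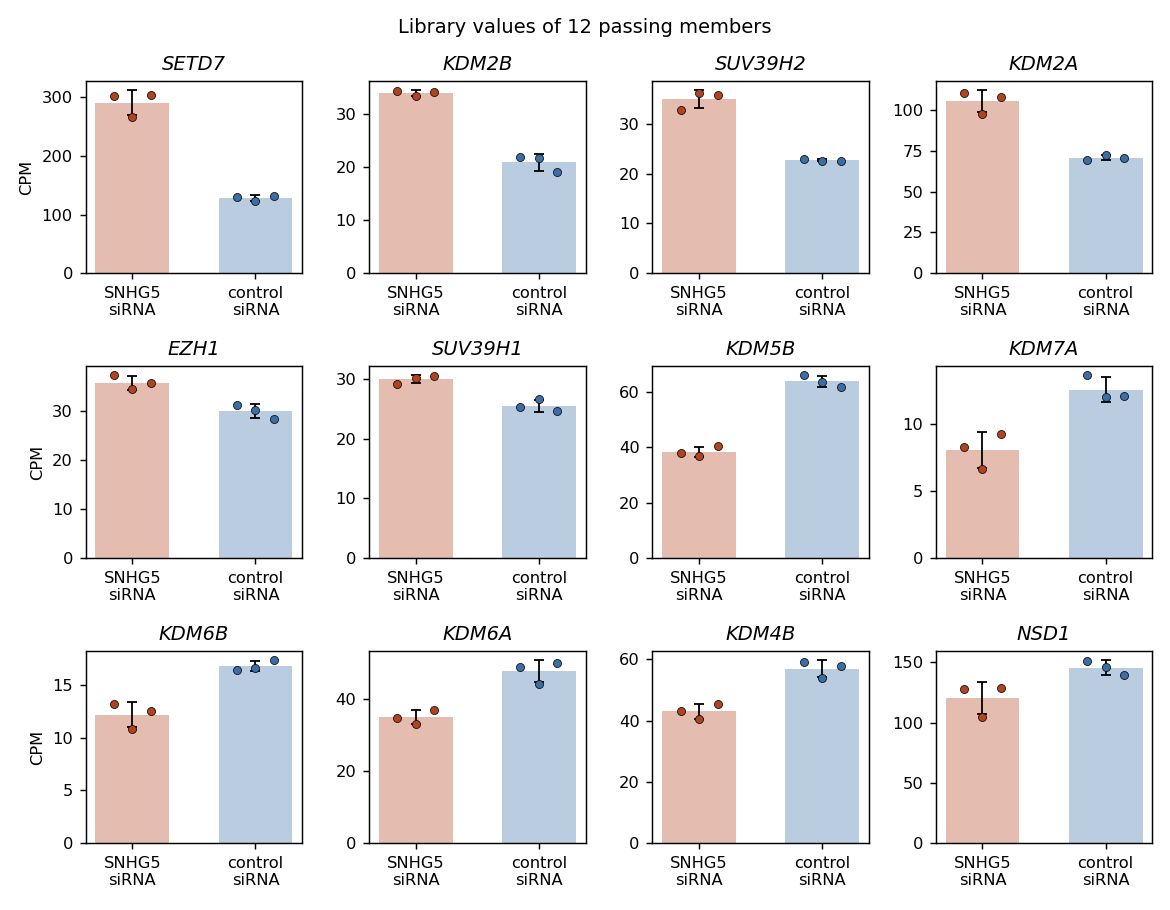
CPM in each library (points) with the mean (bar) and SD (error bar; n = 3 per group) of 12 passing members, SNHG5 siRNA on the left and control siRNA on the right of each panel. In all 12 the points of the 2 groups do not overlap; the first 6 genes (SETD7 to SUV39H1) are higher and the last 6 (KDM5B to NSD1) are lower in SNHG5 siRNA libraries.

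The KMT5 genes write H4K20 methylation, which is tied to the cell cycle and to compaction. KMT5A, which adds the first methyl group, was at 59.4, 60.5 and 60.1 CPM in SNHG5 siRNA libraries, against 71.0, 70.5 and 71.3 CPM in control siRNA libraries. Replicates lay close together and the groups apart (log2 fold change -0.25 ± 0.05 SE; adjusted p = 0.00144). KMT5C, which adds the third, was at 5.61, 5.69 and 5.10 CPM in SNHG5 siRNA libraries, against 7.08, 8.30 and 6.14 CPM in control siRNA libraries (log2 fold change -0.40 ± 0.13 SE; adjusted p = 0.0210). That call did not hold without SNHG5 siRNA replicate 3 (adjusted p = 0.0694) or control siRNA replicate 2 (0.149), and the deposited FPKM differed less, at 1.14 ± 0.0242 in SNHG5 siRNA cells and 1.21 ± 0.150 in control siRNA cells. The KMT5C call was also lost with all libraries by DESeq2, with the GC trend removed and in every limma fit on FPKM. KMT5B had 0.06 and did not pass.

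DOT1L, the H3K79 writer and the methyltransferase among the members that lacks a SET domain, had 0.14 at an adjusted p of 0.0556. It passed as higher under 9 of 18 other settings, among them without SNHG5 siRNA replicate 2 (0.20, adjusted p = 7.78e-04). PLEKHJ1, which overlaps it on the other strand, had 0.53 at 51.4 CPM. SETD3, an actin histidine methyltransferase (-0.01), SETD4 (-0.19), SETD5 (-0.08), SETD9 (0.10) and the JmjC gene KDM8 (0.18) did not pass. SETD6 had 0 to 2 counts per library and was not tested. SETDB2-PHF11, a read-through name that matches the rule, was at 0 counts in every library and was not tested, although its deposited FPKM were 1.31 to 2.06; it is left out of the sums that follow.

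The methyltransferase genes had the larger summed FPKM in every library, and the demethylase to methyltransferase ratio was lower after SNHG5 siRNA. The sums ran over 28 methyltransferase and 17 demethylase genes, so which sum is larger depends in part on the number of genes chosen. The demethylase genes summed to 101, 95.9 and 102 FPKM in SNHG5 siRNA libraries, against 105, 103 and 103 FPKM in control siRNA libraries. The methyltransferase genes summed to 180, 168 and 183 FPKM in SNHG5 siRNA libraries, against 160, 159 and 157 FPKM in control siRNA libraries. The ratio of demethylase to methyltransferase FPKM was therefore 0.562 ± 0.00724 in SNHG5 siRNA cells and 0.651 ± 0.00361 in control siRNA cells. Without SETD7 the ratio was 0.665 ± 0.00388 in SNHG5 siRNA cells and 0.706 ± 0.00573 in control siRNA cells, a smaller gap than with it. These ratios are descriptions of transcript levels, with no test, and say nothing of enzyme activity or of the marks.

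By residue and among the members alone, the ratio of eraser to writer FPKM was lower in every SNHG5 siRNA library than in any control siRNA library for H3K4, H3K9 and H3K27, and higher for H3K36. For H3K4 it was 0.773 ± 0.0571 in SNHG5 siRNA cells and 1.09 ± 0.0349 in control siRNA cells. Without SETD7 the H3K4 ratio was 1.30, 1.496 and 1.30 in SNHG5 siRNA libraries, against 1.41, 1.503 and 1.48 in control siRNA libraries, and the groups overlapped. For H3K9 the ratio was 0.939 ± 0.0372 in SNHG5 siRNA cells and 1.16 ± 0.0428 in control siRNA cells. For H3K27 it was 0.343 ± 0.0239 in SNHG5 siRNA cells and 0.514 ± 0.0367 in control siRNA cells. For H3K36 it was 1.01 ± 0.0742 in SNHG5 siRNA cells and 0.564 ± 0.0344 in control siRNA cells. That H3K36 ratio has NSD1 and SETD2 as its writers. With NSD2, NSD3 and ASH1L added it was 0.323 ± 0.0196 in SNHG5 siRNA cells and 0.205 ± 0.0152 in control siRNA cells. With KDM4A, KDM4B and KDM4C counted as erasers as well, it was 0.636, 0.706 and 0.622 in SNHG5 siRNA libraries, against 0.559, 0.590 and 0.619 in control siRNA libraries, a gap that nearly closed. Each gene was counted under its main residue, although KDM4 and KDM7A enzymes act on more than 1.

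**Figure D5:**
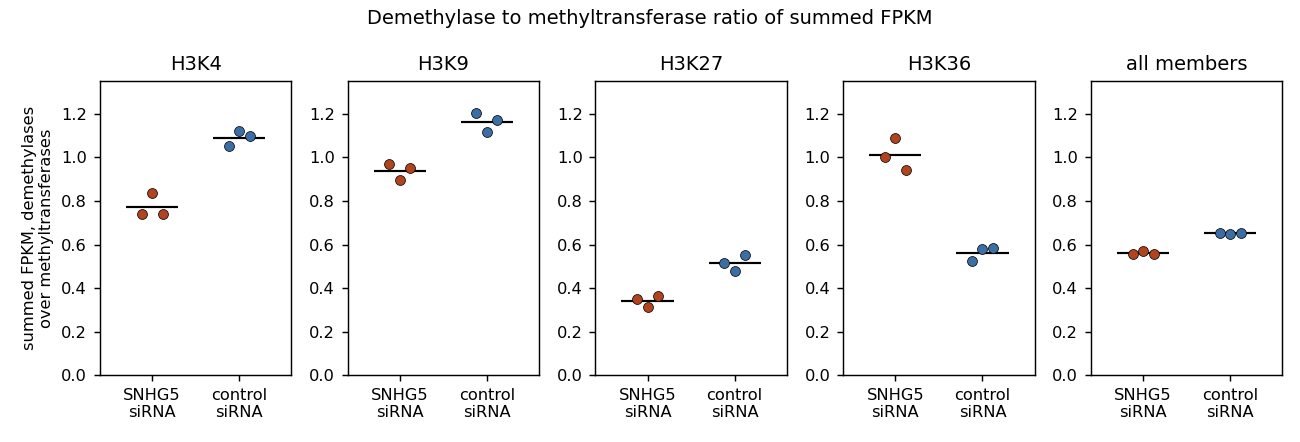
Ratio of summed FPKM of demethylase genes to methyltransferase genes for 4 residues of histone H3 and for all members, in each library (points) with the group mean (line; n = 3 per group), SNHG5 siRNA on the left and control siRNA on the right. The ratio is lower in all SNHG5 siRNA libraries for H3K4, H3K9, H3K27 and all members, and higher for H3K36, where the writers are NSD1 and SETD2 only.

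Partners and readers of these enzymes were counted from 8 lists, to be read against the background of 20.3% of tested genes higher and 19.9% lower. The cofactors of H3K9 methylation and its HP1 readers included 6 genes that rose among 13 tested (46.2%; median log2 fold change 0.13): the chromatin assembly subunits CHAF1A (0.59) and CHAF1B (0.27), the HP1 genes CBX1 (0.42) and CBX5 (0.18), UHRF1 (0.23), which binds methylated H3K9, and MPHOSPH8 (0.16), a HUSH subunit. The other 7 did not pass by edgeR, none of them was lower at an unadjusted p under 0.05, and DESeq2 gave the same count of 6. Of 11 tested PRC2 subunit genes, 5 rose (45.5%) and 2 fell (18.2%, near the background), with a median of 0.12; by DESeq2 1 fell. LCOR (0.40), PHF19 (0.37) and PHF1 (0.28), accessory subunits, and RBBP4 (0.26) and MTF2 (0.24) were higher, while JARID2 (-0.27) and LCORL (-0.18) were lower.

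Of 19 tested genes of the Polycomb complex PRC1 and of H3K27 readers, 2 rose (10.5%) and 5 fell (26.3%), with a median of -0.05; 36.8% passed, near the 40.2% of all tested genes, and by DESeq2 1 rose and 5 fell. PHC1 (-0.58), PCGF1 (-0.52), which is the partner of KDM2B in its PRC1 complex, CBX6 (-0.45), PCGF5 (-0.35) and PCGF3 (-0.29) fell, and PCGF6 (0.31) and CBX7 (0.26) rose. Of 12 tested subunits of the LSD1 and KDM5 complexes, 3 rose and 3 fell (25% each, near the background), with a median of 0.03. The deacetylase HDAC1 (0.33), ZMYM3 (0.25) and HMG20B (0.21) were higher, and RCOR1 (-0.27), the scaffold that ties KDM1A to nucleosomes, ZMYM2 (-0.23) and GSE1 (-0.22) were lower. Of 14 tested COMPASS subunits, 3 rose (PAXIP1, 0.28; RBBP5, 0.26; BOD1, 0.24) and 11 did not pass, a passing share of 21.4% beside the background of 40.2%.

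Demethylase-related JmjC genes outside the symbol rule gave no call: of 11 tested, 0 passed by edgeR, 0 had an unadjusted p under 0.05 and 0 passed by DESeq2, with a median of -0.13. The most abundant of them were JMJD1C, at 110.1 ± 3.43 CPM in SNHG5 siRNA cells and 110.1 ± 7.28 CPM in control siRNA cells, and HIF1AN, an asparagine hydroxylase, at 86.7 ± 4.35 CPM in SNHG5 siRNA cells and 90.7 ± 0.666 CPM in control siRNA cells. Of 12 other tested SET-domain genes, SMYD4 (0.36) and the H3K36 writer NSD2 (0.22) rose (16.7%, near the background) and 10 did not pass. The last list covered S-adenosylmethionine supply and 2-oxoglutarate metabolism, and not all of its genes supply either compound. Of its 24 tested genes, 1 rose (4.17%) and 7 fell (29.2%), with a median of -0.00. By DESeq2 5 fell. MAT2A, which makes S-adenosylmethionine, rose by 0.17. OGDH (-0.32), which uses up 2-oxoglutarate, IDH1 (-0.30), GOT1 (-0.28), IDH3G (-0.22), FH (-0.18), IDH3B (-0.16) and AHCY (-0.13) fell.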

How the data were processed

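mRNA libraries of 6 KGN samples (1.0 µg of total RNA each) were compared as 2 groups of 3. The deposited counts are whole reads per gene name, not normalised by the authors; the deposited FPKM were scaled by the authors to gene length and library size. Reads were trimmed with Trimmomatic and the build was GRCh38, per the submitters' processing notes; the aligner, counting program, strand setting and annotation are not given in the sources used here. Both tables held 0 columns of other samples. The labels do not say that replicates were separate cultures, so p-values measure only the spread between these samples. Deviations of same-numbered replicates correlated only weakly (0.0463, 0.130 and 0.0264), beside -0.116 to 0.0843 between differently numbered ones. The labels do not say that same-numbered replicates belong together, so they were not paired.

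Counts were scaled by TMM (factors 0.998 to 1.003), filtered with filterByExpr and tested with edgeR 4.0.16 (quasi-likelihood, 2-sided; R 4.3.3), after tests on simulated data. CPM are counts divided by the library total and scaled to a common size; totals of 18232634 to 22088913 put a floor of 3 counts at 0.136 to 0.165 CPM. Calls without overlap were counted over 12504 genes with a unique name. FPKM were used for levels and as alternatives, tested with limma 3.58.1 on log2(FPKM + 1) and log2(FPKM + 0.1); DESeq2 1.42.0 was another. Positions and exon lengths come from GENCODE v29 (45 members matched). The members, the lists and the 3′ UTR words were chosen with earlier results of these data known. Library values are given for up to 8 passing members of each class with no overlap, by size of change, and for the 2 most abundant; up to 4 passing genes were named per list, or the 2 most abundant where fewer than 2 passed. Other members given by library and further list genes were named after their values were seen. Python 3.11.15 with pandas 2.3.3, numpy 2.4.6, scipy 1.17.1 and matplotlib 3.10.9 was used.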

Additional observations from a re-analysis of the deposited data

How the results depend on the processing

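Of the 20 passing members, 12 passed in the same direction under all 18 alternatives: SETD7, KDM2A, KDM2B, SUV39H2, EZH1, KDM5B, KDM7A, KDM6A, KDM6B, KDM4B, KDM4C and KMT5A. The other 8 (KDM1B, KDM3A, KDM4A, KMT5C, NSD1, SETD1B, SETDB1 and SUV39H1) missed the threshold under at least 1, and no passing member turned round; where no value shows a cause, it was not tested. The count of lower methyltransferase genes, 5, was 2 by limma on log2(FPKM + 1) and on log2(FPKM + 0.1), 1 on log2(FPKM + 1) with no filter, 3 with the GC trend removed, and 8 with the replicate block and the length trend removed; leaving out 1 library gave 3 to 5, with 3 without control siRNA replicate 2. The count of higher methyltransferase genes, 4, ranged from 3 to 7, with 7 without SNHG5 siRNA replicate 2, where DOT1L, KMT2A and KMT2C also passed. The demethylase median, -0.20, ranged from -0.24 (GC trend removed, or upper quartile scaling) to -0.13 (without SNHG5 siRNA replicate 2), and from -0.21 to -0.13 when 1 library was left out. The count of lower demethylase genes was 7 to 9, and that of higher ones 2, under all alternatives. The replicate block alone gave 5714 passing genes against 5026, with 2 demethylase genes higher and 9 lower and 6 methyltransferase genes higher and 6 lower; same-numbered replicates were not shown to pair. Over all alternatives 3581 to 5981 genes passed. Upper quartile scaling gave 2055 higher and 3089 lower genes (39.9% higher), against 2538 and 2488 (50.5%). On log2(FPKM + 1), where low genes change less by construction, KDM7A had -0.34, KDM6B -0.21 and KDM4B -0.21, all still passing. For KDM4B the fall was also smaller than in counts on log2(FPKM + 0.1), so the added 1 does not account for most of the difference. With 3 libraries a group and no check of SNHG5, protein or histone marks, these values describe transcripts only.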

Other observations

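Promoters of the members were searched for the E2F words TTTCGCGC, TTTGGCGC, TTTCCCGC and TTTGCCGC, on either strand, in the 250 bases before each listed start of a gene (RefSeq, GRCh38.p14). A gene was counted if any of its starts had a word, and the number of starts differs between genes. A word was found in 2 of the 42 tested members with a promoter in that table (4.76%), EZH1 and KDM1B, and in 568 of 9938 tested genes with one (5.72%). EZH1 rose and KDM1B fell.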
